A study of Mus musculus with 8 samples.

Results

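The 35 genes described here encode the folding machinery of the endoplasmic reticulum (ER) and the unfolded protein response that controls it. They were chosen by name, and their roles set, with earlier results of these data known. Each was found on the array through the RefSeq accession of its probe. Where a gene had several probes, the brightest on average across the 8 arrays stood for it. All 35 were on the array and all 35 were among the 25353 genes tested. Of those 25353, 16136 have a gene symbol, and the rest were counted by the identifier given for the probe. By role the 35 genes are 16 chaperones and folding enzymes, 8 genes of ER-associated degradation, 6 genes of the PERK arm, 3 sensors or factors of the other arms and 2 genes of protein translocation. Of these genes, 34 were well above background on all 8 arrays, and Derl3 was so on 3 of 4 E7386 arrays and 4 of 4 vehicle arrays.

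Whisker follicles of female ApcMin/+ mice were compared after E7386 and after vehicle, with 4 samples in each group. Mice on E7386 were dosed orally at 30 mg/kg, 2 times a day, in 4 cycles of 5 days on E7386 and then 2 days off it, beginning at 8 weeks of age, and follicles were taken 6 h after the last dose. The other group received vehicle. Both groups carry the Min allele of Apc, which truncates a protein of the complex that degrades beta-catenin, so no follicle with wild-type Apc was compared. E7386 is known as an inhibitor of the interaction of beta-catenin with its coactivator CBP. Whether each sample is a mouse of its own is not stated in the labels. The tests therefore compare the groups with the spread of these samples, which may be technical.

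Secretory and membrane proteins fold in the ER, where BiP and its partners hold unfolded chains and protein disulphide isomerases join cysteines. When unfolded protein builds up, the sensors IRE1, ATF6 and PERK respond. IRE1 splices the mRNA of Xbp1, ATF6 is cut to release a transcription factor, and PERK phosphorylates eIF2alpha, which slows translation but favours that of Atf4. XBP1 and ATF6 raise chaperones and degradation genes, and ATF4 raises genes such as Ddit3, Trib3 and Chac1. ATF4 also answers to other kinases that sense amino acid shortage, haem lack or viral RNA. Splicing, cleavage and phosphorylation were not measured by these arrays.

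The data are 1-colour array intensities. A value below is the normalised log2 signal, the log2 of the processed signal minus the 75th percentile of that array, and a change is E7386 minus vehicle on this log2 scale. The number of arrays limits the precision. All 8 arrays lie on 1 slide with 1 scan, E7386 in row 2 and vehicle in row 1, so row and treatment cannot be told apart. The share of spots well above background was 61.5% to 61.9% on E7386 arrays and 62.2% to 64.7% on vehicle arrays. The keratins and transcription factors of hair follicle epithelium fit the labelled tissue, with all 12 measured markers well above background on every array. Skeletal muscle genes were present too. The mean signal of the 10 measured was 1.91, 2.73, 4.80 and 4.98 on E7386 replicates 1 to 4 and 1.63, 4.11, 4.61 and 4.86 on vehicle replicates 1 to 4, so E7386 replicates 1 and 2 and vehicle replicate 1 stand apart with low muscle signal. In RNA from whole follicles, fewer cells of a type and less RNA per cell cannot be told apart.

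The start sites of these genes were searched for sequence elements through which the response is known to act, and 13 of 30 windows held at least 1. The ER stress response element (ERSE), searched as CCAAT and CCACG with 9 further bases between them, is bound by ATF6 with NF-Y. ERSE-II, searched as ATTGG and CCACG with 1 further base between them, is bound by ATF6 or XBP1. The element of ATF4 with C/EBP factors was searched as TGATGNAA, and the core of the XBP1 and ATF6 element as TGACGTG. Windows of 250 bases before to 50 bases after the start, from RefSeq on GRCm38.p6, were matched for 30 of the 35 genes, all but Hyou1, Hspa13, Manf, Derl1 and Atf6. Both strands were read and only exact matches counted. An ERSE stood in 9 of the 30 windows, or 30%, against 0.164% of the 12790 tested genes with a window and 0.137% of the 27025 genes with one. ERSE-II stood in 2 of 30 windows (0.0704% of tested genes), the ATF4 element in 3 of 30 (3.1%) and the TGACGTG core in 1 of 30 (2.91%). The shares of tested genes include these 30 windows. Since genes of this response were chosen, a higher share of its elements is not a result of these data. A match is a description of the letters and not a bound site. The windows of Pdia6, the gene that passed the test, of Hspa5, which encodes BiP, and of Herpud1, whose signal was higher with E7386, are shown in full, with ERSE, ERSE-II and the ATF4 element in capitals. They are chr12:17266339-17266638 (plus strand), chr2:34771840-34772139 (plus strand) and chr8:94386179-94386478 (plus strand).
Pdia6: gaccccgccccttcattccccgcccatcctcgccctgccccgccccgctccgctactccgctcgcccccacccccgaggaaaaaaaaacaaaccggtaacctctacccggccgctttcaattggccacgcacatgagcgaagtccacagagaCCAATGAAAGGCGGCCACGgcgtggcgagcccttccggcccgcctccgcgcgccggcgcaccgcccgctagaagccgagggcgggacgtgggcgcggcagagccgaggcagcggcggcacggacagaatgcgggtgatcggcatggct
Hspa5: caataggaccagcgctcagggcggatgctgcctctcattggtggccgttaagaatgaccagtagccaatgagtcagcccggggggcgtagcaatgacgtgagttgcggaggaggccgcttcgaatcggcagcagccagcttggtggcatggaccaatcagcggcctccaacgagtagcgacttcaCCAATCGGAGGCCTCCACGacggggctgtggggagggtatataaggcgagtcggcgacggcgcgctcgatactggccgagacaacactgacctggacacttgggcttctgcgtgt
Herpud1: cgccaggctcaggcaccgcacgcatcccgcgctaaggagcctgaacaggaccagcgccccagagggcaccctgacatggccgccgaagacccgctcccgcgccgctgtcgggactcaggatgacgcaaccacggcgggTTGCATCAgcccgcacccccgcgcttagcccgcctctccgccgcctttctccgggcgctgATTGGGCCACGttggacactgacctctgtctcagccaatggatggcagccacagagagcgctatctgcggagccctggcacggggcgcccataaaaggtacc

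The other ERSE and ERSE-II matches are given with 6 bases on each side, read along the gene, to show the bases between the 2 searched parts, whose spacing the search itself fixed. Hsp90b1 holds 2 copies in opposite directions. Creld2, Calr and Derl3 hold theirs on the opposite strand, as the reverse complement.
Creld2: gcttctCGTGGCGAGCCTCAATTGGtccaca
Hsp90b1, first copy: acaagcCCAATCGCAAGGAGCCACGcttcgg
Hsp90b1, second copy: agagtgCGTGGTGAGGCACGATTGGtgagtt
Dnajc3: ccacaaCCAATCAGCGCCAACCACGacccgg
Canx: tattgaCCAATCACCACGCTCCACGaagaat
Calr: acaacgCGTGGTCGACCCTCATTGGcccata
Syvn1: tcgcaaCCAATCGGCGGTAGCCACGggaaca
Derl3: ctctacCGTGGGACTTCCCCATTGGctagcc
Dnajb11, ERSE-II: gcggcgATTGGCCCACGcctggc
By role, an ERSE stood in 7 of the 13 chaperone and folding windows, in 2 of the 7 degradation windows and in 0 of the 6 PERK-arm windows. The ATF4 element was found in Trib3 and Chac1 of the PERK arm and in Herpud1, each on the opposite strand.
Trib3: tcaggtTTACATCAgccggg
Chac1: ctgccgTTGCATCActcctg

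Most folding genes had somewhat lower signals after E7386, and 1 of them passed the test. Of the 16 chaperones and folding enzymes, 14 had a lower mean with E7386, against 48% of all genes tested, and the median change was -0.19, where the median of all genes was 0.0088. The role was set with earlier results of these data known, so its counts by direction are a description only. Pdia6 fell past the threshold (limma, Benjamini-Hochberg adjusted p under 0.05 over all genes), 1 of 16, and no gene of the 35 rose past it. Of all genes tested, 0.367% fell, 0.753% rose and 1.12% were called in either direction. The 4 E7386 arrays lay below the 4 vehicle arrays without overlap for 8 of the 16 (5.7% of all genes) and above them for 1 (4.82% of all genes), where 10.5% of all genes did not overlap in either direction. The mean signal of the 16 genes was 2.43, 2.46, 2.25 and 2.29 on E7386 arrays and 2.59, 2.56, 2.62 and 2.64 on vehicle arrays. E7386 replicates 3 and 4 were the lowest, and vehicle arrays lay close together.

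Pdia6, a protein disulphide isomerase that also helps to switch off IRE1 and PERK, had signals of 5.41, 5.39, 5.08 and 5.09 on E7386 arrays and 5.94, 5.77, 5.79 and 5.81 on vehicle arrays. Every E7386 array was below every vehicle array, with a gap of 0.35 between the groups. It averaged 5.24 ± 0.18 with E7386 and 5.83 ± 0.08 with vehicle (SD, n = 4 each), a change of -0.58 (SE 0.10, limma adjusted p = 0.0443). The signal fell by 33.3%. Its other probe gave -0.43. The adjusted p lies close to the threshold, and Pdia6 passed it in 8 of 20 other settings. With 1 array left out it passed once in 8, without E7386 replicate 1, and the limma adjusted p ran from 0.0484 to 0.137.

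**Figure D1:**
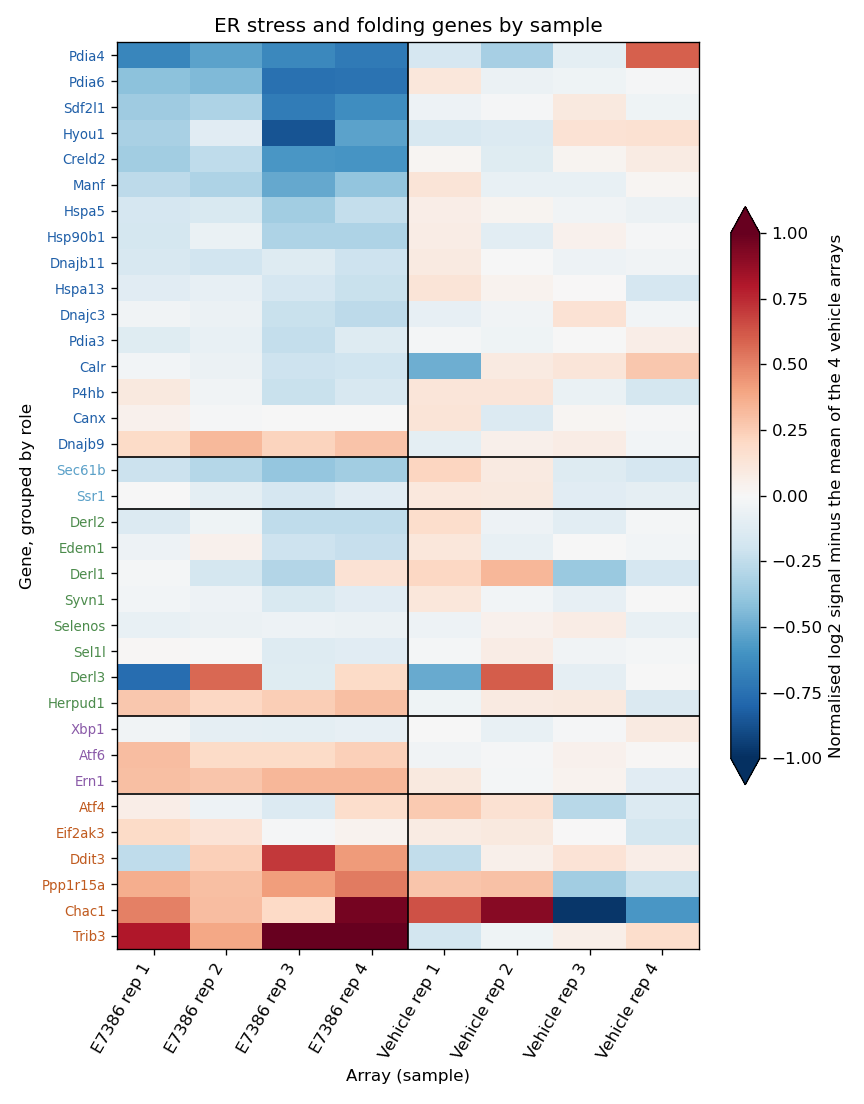
Signal of each of the 35 genes (rows, grouped by role and ordered by change within a role) on each array (columns, E7386 left of vehicle), as the normalised log2 signal minus the mean of the 4 vehicle arrays, with blue lower and red higher. Most chaperone rows are blue on the E7386 arrays, with the lowest mean of the role on replicates 3 and 4, while Chac1 and Ppp1r15a are blue on vehicle replicates 3 and 4, and values beyond the ends of the scale, such as Trib3 on E7386 replicates 3 and 4, take the end colour.

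Next to Pdia6 stood 3 small ER proteins that are sharply induced when unfolded protein accumulates. Sdf2l1, which keeps BiP with its co-chaperones, had signals of -0.94, -0.89, -1.28 and -1.20 with E7386 and -0.63, -0.59, -0.48 and -0.62 with vehicle. Creld2, a disulphide isomerase with calcium-binding repeats, had 3.57, 3.67, 3.33 and 3.33 with E7386 and 3.94, 3.80, 3.95 and 4.00 with vehicle. Manf, a secreted protein that binds BiP and protects cells from ER stress, had 1.85, 1.81, 1.60 and 1.72 with E7386 and 2.25, 2.04, 2.04 and 2.13 with vehicle. The groups did not overlap in any of the 3, where 5.7% of all genes were lower without overlap. These 3 were named for their small p, so separate groups are no further support. Their changes were -0.50 for Sdf2l1 (SE 0.10), -0.44 for Creld2 (SE 0.10) and -0.37 for Manf (SE 0.09), and none passed the limma test, with adjusted p of 0.076, 0.0922 and 0.0949. With the muscle signal as a covariate, Sdf2l1 (adjusted p = 0.0498) and Manf (adjusted p = 0.036) passed the limma test, where 2.4% of all genes were called, and Sdf2l1 also passed with normexp background correction, where 1.87% were called.

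Hspa5 encodes BiP, the main ER chaperone and the brake on all 3 sensors. Its signals were 5.59, 5.60, 5.41 and 5.52 on E7386 arrays and 5.82, 5.78, 5.73 and 5.70 on vehicle arrays, again without overlap. The change was -0.23 (SE 0.07), and it did not pass (limma adjusted p = 0.201). Hsp90b1, the ER form of HSP90, was at -0.21 (SE 0.08), with E7386 replicate 2 at 4.64 above vehicle replicate 2 at 4.60. Hyou1, a large HSP70-like exchange factor of BiP, was at -0.46 (SE 0.17). Its signals were the lowest of the role, averaging -3.30 with E7386 and -2.85 with vehicle, though well above background on every array. The change of Hyou1 was -0.19 with normexp, and it was -0.75 among arrays of high muscle signal and -0.059 among those of low muscle signal. The low-muscle set holds 1 vehicle array. Dnajb11, a BiP co-chaperone, was at -0.17 (SE 0.07). Pdia4, a further disulphide isomerase, had the most negative change of the role at -0.63 (SE 0.19, limma adjusted p = 0.175). Vehicle replicate 4 at 1.30 stood above the other vehicle signals of Pdia4, 0.36 to 0.60, and without that array the change of Pdia4 was -0.43.

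The lectin chaperones and the remaining enzymes differed less. Calr and Canx, the calcium-binding lectins that hold glycoproteins, were at -0.12 (SE 0.16) and 0.0050 (SE 0.08). Calr was lowest on vehicle replicate 1, at 3.50, the only vehicle array of low muscle signal. It was higher with E7386 among arrays of low muscle signal (0.44) but lower among the others (-0.37). Pdia3, the isomerase that works with these lectins, was at -0.14 (SE 0.07), and P4hb, the isomerase PDI itself and a subunit of prolyl hydroxylase, at -0.078 (SE 0.10). Hspa13, an HSP70-like protein of microsomes, was at -0.15 (SE 0.08) and Dnajc3, the co-chaperone p58IPK that restrains PERK, at -0.14 (SE 0.09).

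Dnajb9 had a higher mean, unlike most of its role. It encodes ERdj4, which brings BiP to IRE1 and keeps IRE1 inactive, and it is given here because of its values. Its signals were 1.11, 1.25, 1.15 and 1.21 with E7386 and 0.83, 0.97, 1.00 and 0.90 with vehicle. All 4 E7386 arrays were higher, with a change of 0.26 (SE 0.07), and the other probe gave 0.28, but the limma test did not pass (adjusted p = 0.15).

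Of the 2 genes of translocation, both had lower means. Sec61b, a subunit of the channel through which new chains enter the ER, had 5.13, 5.05, 4.95 and 4.99 with E7386 and 5.55, 5.43, 5.21 and 5.17 with vehicle. The groups were apart by 0.04, and the change of -0.31 (SE 0.10) did not pass the limma test (adjusted p = 0.215). Ssr1, a subunit of the translocon-associated complex, had 4.06, 3.97, 3.89 and 3.95 with E7386 and 4.17, 4.16, 3.95 and 3.98 with vehicle, overlapping groups with a change of -0.097 (SE 0.08). Its 2 other probes gave 0.057 and -0.29.

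**Figure D2:**
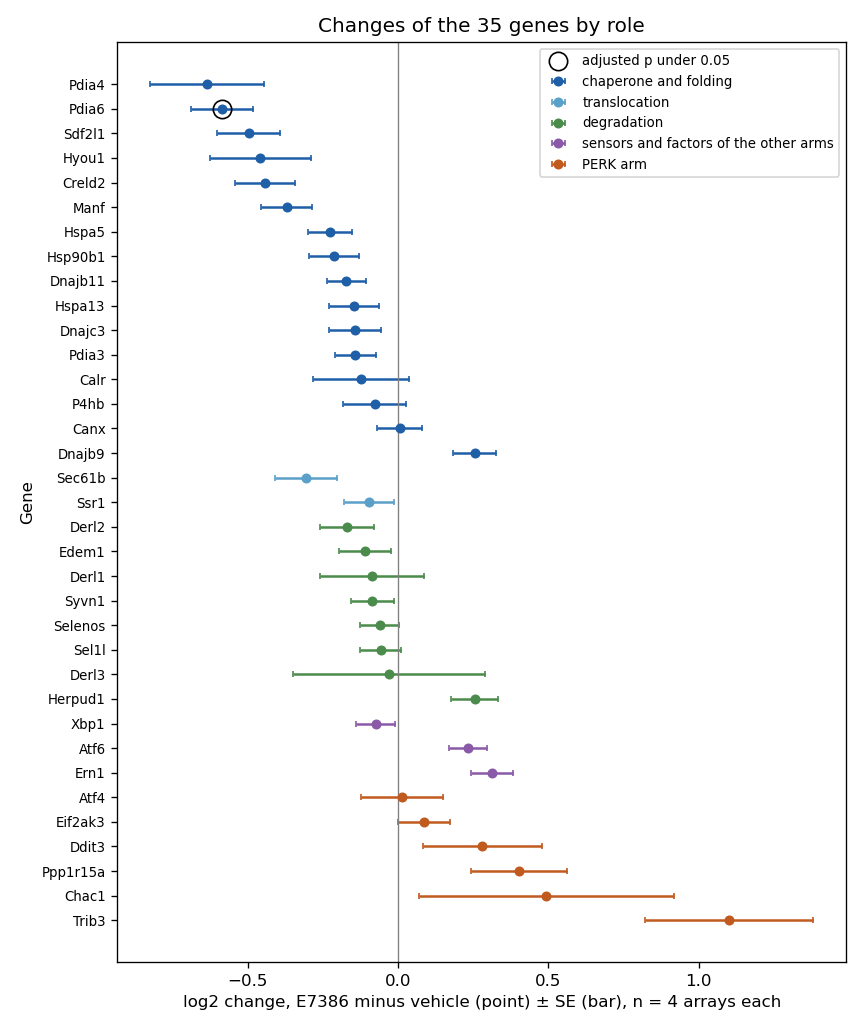
Change of each of the 35 genes (log2, E7386 minus vehicle, point) with its standard error (bar), coloured by role, with a ring around the gene past an adjusted p of 0.05. Chaperones lie mostly left of 0 with Pdia6 ringed at -0.58, Dnajb9, Herpud1, Atf6 and Ern1 lie to the right at 0.23 to 0.31, and the 6 PERK-arm genes run from 0.012 to 1.10.

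Degradation genes, which recognise misfolded proteins and pass them back to the cytosol, had small differences. Of the 8, 7 had a lower and 1 a higher mean with E7386, with a median change of -0.074, and 0 passed the limma test, with 1 gene at an unadjusted p under 0.05 (15.2% of all genes). That gene, Herpud1, encodes a membrane protein that assembles the degradation complex. It had 3.91, 3.84, 3.88 and 3.93 with E7386 and 3.59, 3.72, 3.74 and 3.49 with vehicle, all 4 E7386 arrays being higher. Its change was 0.25 (SE 0.08, limma adjusted p = 0.185).

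The other degradation genes had overlapping groups. Derl2, a rhomboid-like protein of the exit channel, had 3.45, 3.54, 3.34 and 3.34 with E7386 and 3.77, 3.54, 3.48 and 3.57 with vehicle, a change of -0.17 (SE 0.09). Edem1, which trims mannose from proteins bound for degradation, had 1.06, 1.16, 0.91 and 0.89 with E7386 and 1.23, 1.04, 1.11 and 1.09 with vehicle (-0.11, SE 0.09). The ubiquitin ligase gene Syvn1, which encodes HRD1, had 4.33, 4.31, 4.20 and 4.24 with E7386 and 4.47, 4.33, 4.28 and 4.35 with vehicle (-0.086, SE 0.07). Its adaptor Sel1l was at -0.058 (SE 0.07) and Selenos, a selenoprotein that recruits the ATPase p97, at -0.062 (SE 0.07). Derl1, another protein of the exit channel, was at -0.087 (SE 0.17), and its other probe at 0.10. Its relative Derl3 was at -0.030 with a wide error (SE 0.32), its signals running from -4.99 to -3.65 with E7386 and from -4.74 to -3.62 with vehicle.

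Among the sensors and factors outside the PERK arm, Ern1 and Atf6 had higher signals with E7386. Ern1, which encodes IRE1alpha, had 0.04, 0.02, 0.07 and 0.07 with E7386 and -0.16, -0.28, -0.22 and -0.38 with vehicle. The groups were apart by 0.18, and the change was 0.31 (SE 0.07, limma adjusted p = 0.0909). Atf6 had -0.82, -0.94, -0.94 and -0.89 with E7386 and -1.17, -1.14, -1.09 and -1.12 with vehicle, also without overlap, with a change of 0.23 (SE 0.06, limma adjusted p = 0.142). Neither passed the threshold. Xbp1, the factor whose mRNA IRE1 splices, had 5.41, 5.35, 5.35 and 5.36 with E7386 and 5.44, 5.37, 5.43 and 5.53 with vehicle. Those groups overlapped, with a change of -0.075 (SE 0.07).

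**Figure D3:**
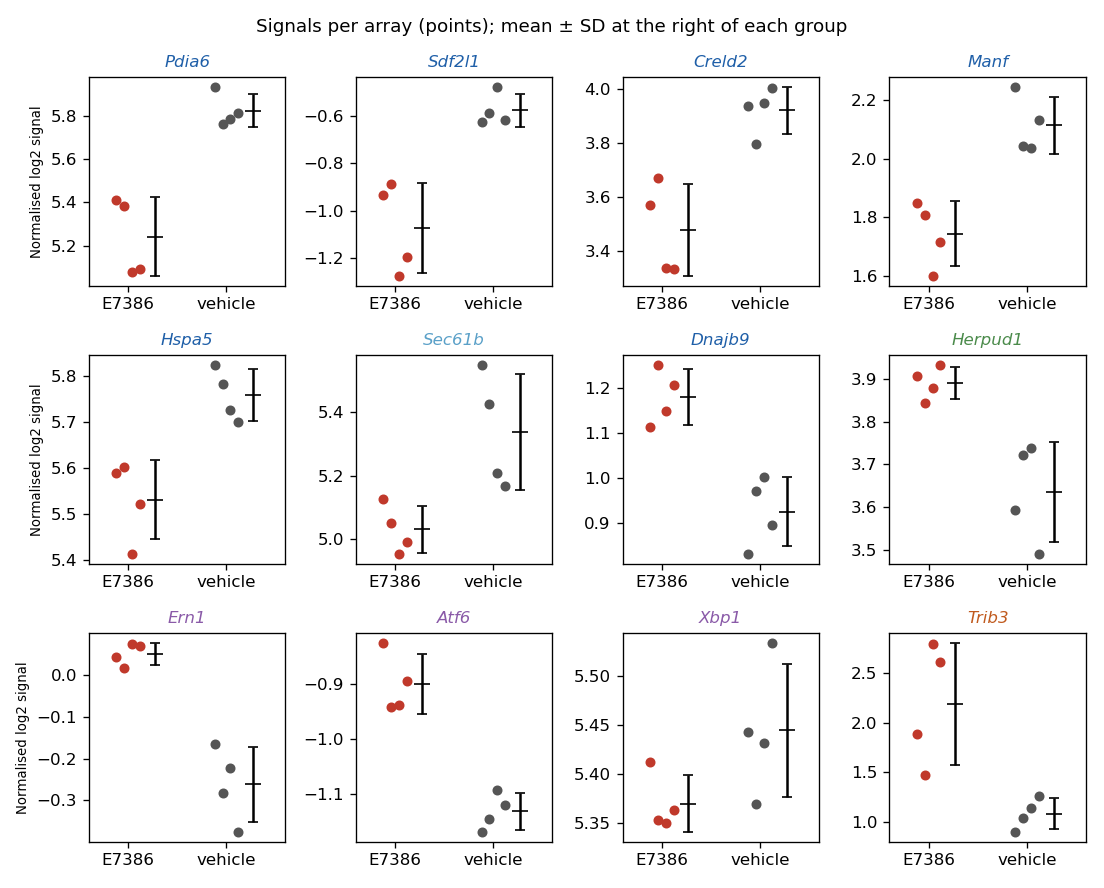
Normalised log2 signal of 12 genes on each array (points), with the mean and SD of the 4 arrays at the right of each group, E7386 left of vehicle, and a scale of its own in each panel. Pdia6, Sdf2l1, Creld2, Manf, Hspa5 and Sec61b are lower on all 4 E7386 arrays, Dnajb9, Herpud1, Ern1, Atf6 and Trib3 are higher on all 4, and Xbp1 overlaps.

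The PERK arm leaned the other way from the chaperones. All 6 of its genes had a higher mean with E7386, against 52% of all genes tested, with a median change of 0.34, but 0 passed the limma test, and 2 had an unadjusted p under 0.05 (15.2% of all genes in either direction). This role too was set with earlier results known, so its count by direction is a description only. The gene of the kinase itself and Atf4, whose translation the arm favours, had small differences in signal. Eif2ak3, which encodes PERK, was at 0.086 (SE 0.09). Atf4 had 6.75, 6.64, 6.54 and 6.86 with E7386 and 6.94, 6.84, 6.41 and 6.55 with vehicle, a change of 0.012 (SE 0.14). Its sign turned with array medians as the scale (-0.065), with quantile normalisation (-0.031) and with normexp (-0.052).

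Trib3 had the largest mean change of the 35 genes. It encodes a pseudokinase that ATF4 and CHOP induce and that in turn restrains ATF4 and the kinase AKT. Its signals were 1.89, 1.47, 2.79 and 2.60 on E7386 arrays and 0.90, 1.04, 1.14 and 1.26 on vehicle arrays. All E7386 arrays were higher, but they formed a lower and a higher pair, and the SD was 0.62 with E7386 and 0.15 with vehicle. The change was 1.10 (SE 0.28), or 2.14-fold higher, and it did not pass the limma test (adjusted p = 0.119). The lower pair, replicates 1 and 2, is the pair with low muscle signal. Between arrays of like muscle signal, Trib3 was higher with E7386 by 1.55 (2 E7386 and 3 vehicle arrays of high muscle signal) and by 0.78 (2 E7386 and 1 vehicle array of low muscle signal). It passed the limma test with the muscle signal as a covariate (1.14, adjusted p = 0.0412, 2.4% of all genes called). With the 3 low-muscle arrays left out, it passed as well (1.55, limma adjusted p = 0.0388, 48 genes called in all). Over the 20 other settings its limma adjusted p ran from 0.0388 to 0.27.

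Chac1 and Ppp1r15a differed between vehicle arrays. Chac1, an enzyme that breaks down glutathione and a target of ATF4, had 7.38, 7.19, 7.07 and 7.83 with E7386 and 7.51, 7.79, 5.91 and 6.30 with vehicle. Ppp1r15a, which encodes GADD34 and directs a phosphatase to eIF2alpha, had 4.20, 4.14, 4.26 and 4.36 with E7386 and 4.11, 4.13, 3.49 and 3.62 with vehicle. Vehicle replicates 3 and 4 were low for both genes, and vehicle replicates 1 and 2 lay with or next to the E7386 arrays. The same 2 arrays were low in keratin-associated proteins of the hair shaft, whose 50 measured genes averaged 6.32, 6.49, 6.29 and 7.21 on E7386 arrays and 6.28, 7.00, 4.79 and 4.95 on vehicle arrays. The 12 hair follicle epithelium markers also averaged lowest on these 2 arrays, at 5.97 and 6.10, against 6.25 to 6.54 on E7386 arrays. Among vehicle arrays, Atf4 and Derl1 were lowest on the same 2. The part of these hair follicle signals in the result was not tested. The changes were 0.49 for Chac1 (SE 0.42, limma adjusted p = 0.636) and 0.40 for Ppp1r15a (SE 0.16, limma adjusted p = 0.288). When 1 array was left out, Chac1 ran from 0.17 (without vehicle replicate 3) to 0.80 (without vehicle replicate 2) and Ppp1r15a from 0.29 to 0.50.

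Ddit3, which encodes the pro-apoptotic factor CHOP, had -0.45, 0.04, 0.51 and 0.23 with E7386 and -0.45, -0.15, -0.07 and -0.14 with vehicle. Replicate 1 was lowest in both groups, with an equal signal, and the other E7386 arrays lay above the other vehicle arrays. The change of 0.28 (SE 0.20) did not pass the limma test (adjusted p = 0.552), and it was 0.14 without E7386 replicate 3 and 0.46 without E7386 replicate 1.

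**Figure D4:**
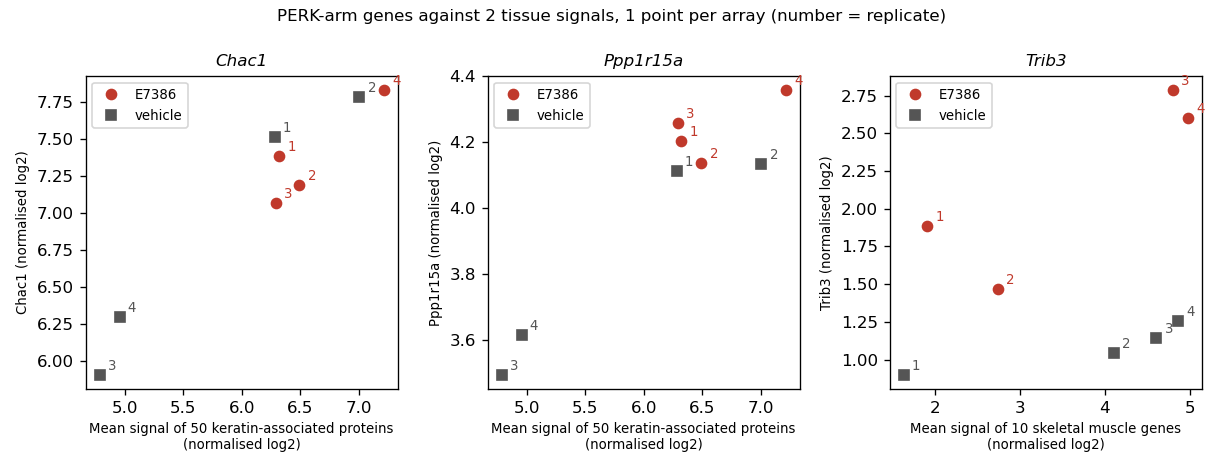
Signals of Chac1 and Ppp1r15a against the mean of 50 keratin-associated proteins, and of Trib3 against the mean of 10 skeletal muscle genes, all as normalised log2 signals with 1 point per array and the replicate number beside it. Vehicle replicates 3 and 4 are low on both axes for Chac1 and Ppp1r15a, and Trib3 is higher with E7386 at both low and high muscle signal.

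Arrays of like muscle signal were also compared for the other roles. The 2 sets were split after the data were seen. The low set holds 2 E7386 arrays and 1 vehicle array, so its differences rest on that 1 vehicle array. Among arrays of high muscle signal, 14 of the 16 chaperone and folding genes were lower with E7386 (median -0.28), and among those of low muscle signal 13 of 16 (median -0.21). Pdia6 was at -0.71 and -0.54, Sdf2l1 at -0.67 and -0.29, Creld2 at -0.58 and -0.32 and Manf at -0.41 and -0.42 in these 2 sets. Ern1 was at 0.37 and 0.19 and Atf6 at 0.20 and 0.29. The PERK arm had a median of 0.52 at high and 0.070 at low muscle signal, where Chac1 (-0.23) and Atf4 (-0.25) were lower with E7386.

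Markers of other secretory cell types were read beside these results. Fibroblast and dermal papilla markers had lower means with E7386 in 7 of 7 genes, 0 of them past the limma test and 0 at an unadjusted p under 0.05, and their mean signal was 1.11 to 1.67 on E7386 arrays and 1.53 to 1.78 on vehicle arrays. Corin had the most negative change of the 7 (-1.36, SE 0.60) and was flagged as detected over background on 1 of 4 arrays with E7386 and 4 of 4 with vehicle. The other 6 lay between -0.32 and -0.087. Plasma and B cell markers, 6 measured, had a mean signal of -4.51 to -2.78 with E7386 and -3.65 to -3.02 with vehicle, with 2 of the 6 higher and 4 lower and 0 past the limma test. Jchain had the most negative change (-1.13, SE 0.90) and was flagged well above background on 2 of 4 arrays with E7386 and on 4 of 4 with vehicle, while Mzb1 was at -0.068, Cd79a at 0.032 and Pou2af1 at 0.027. Sebaceous gland markers, 5 tested, had 1.42 to 1.80 with E7386 and 1.13 to 1.41 with vehicle, with 4 of the 5 higher and 1 lower. Past the threshold rose 1 of the 5 (0.753% of all genes), the acyltransferase gene Dgat2l6 (0.77, SE 0.12, limma adjusted p = 0.0339). Awat1 was at 0.57, Scd1 at 0.14, Elovl3 at 0.13 and Mc5r at -0.029. Mast cell markers had lower means in 3 of 5 and macrophage markers in 3 of 4. Fat markers had higher means in 4 of 5 and Schwann cell markers in 4 of 4. In these 4 lists 0 genes passed the limma test. The part of any of these cells in the results was not tested.

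The wider pathway was read in 7 further lists of 120 genes, of which 119 were tested. Of these, 0 passed the limma test in either direction, and at an unadjusted p under 0.05 there were 4 higher and 14 lower (7.47% and 7.7% of all genes). The translocon, signal peptidase and oligosaccharyl transferase list had 22 of 25 genes with a lower mean (median -0.075). Serp1, which protects the translocon under stress, was at -0.42 (SE 0.09, limma adjusted p = 0.0855), the oligosaccharyl transferase subunit Ostc at -0.38 (SE 0.10) and the signal recognition particle protein Srp14 at -0.20 (SE 0.06). Other ER folding genes were lower in 13 of 17 (median -0.091), with the isomerase Pdia5 at -0.33 (SE 0.10), the prolyl isomerase Fkbp2 at -0.23 (SE 0.08) and the glucosidase subunit Ganab at -0.16 (SE 0.08).

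A list of heat shock genes, chaperones outside the ER and their partners, had lower means in 10 of 13 (median -0.17). Most of them act in the cytosol, and Hspe1 and Hspd1 in mitochondria. The HSP90 partner Chordc1 was at -0.39 (SE 0.09, limma adjusted p = 0.0976). The mitochondrial co-chaperonin Hspe1 was at -0.29 (SE 0.08) and Hsp90aa1 at -0.26 (SE 0.08). Each of them, named for its small p, had all 4 E7386 arrays below all 4 vehicle arrays, as did 5.7% of all genes. Among ER membrane factors, 8 of 12 had lower means (median -0.062). Atf6b, the close relative of Atf6, had -0.48, -0.45, -0.78 and -0.69 with E7386 and -0.14, -0.20, -0.29 and -0.18 with vehicle. That is the opposite direction to Atf6, without overlap, at -0.40 (SE 0.09, limma adjusted p = 0.0958). Creb3l1, a related factor of collagen-secreting cells, was at -0.18 (SE 0.08), and Bak1, a death effector that also binds IRE1, at -0.25 (SE 0.10).

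Targets of ATF4 and the integrated stress response did not share a direction, with 15 of 26 higher and a median of 0.024. Nupr1, a stress-induced chromatin protein, had 4.73, 5.11, 5.10 and 5.26 with E7386 and 4.43, 4.55, 4.54 and 4.28 with vehicle. Its groups did not overlap, with a change of 0.60 (SE 0.12, limma adjusted p = 0.0741). Fgf21, a hormone induced by ATF4 in several tissues, was at 0.56 (SE 0.20) and Mars1, a tRNA synthetase, at -0.22 (SE 0.10). Kinases and regulators of eIF2alpha were lower in 6 of 10 (median -0.048), with Eif2s1, which encodes eIF2alpha, at -0.27 (SE 0.14), Ppp1r15b, a phosphatase partner, at -0.26 (SE 0.17) and the kinase gene Eif2ak2 at -0.19 (SE 0.15). Further ER degradation genes were lower in 8 of 16 (median 0.00043), with Ubxn4, an ER anchor of p97, at 0.43 (SE 0.12), the lectin Erlec1 at 0.45 (SE 0.13) and the p97 cofactor Nploc4 at 0.20 (SE 0.12).

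**Figure D5:**
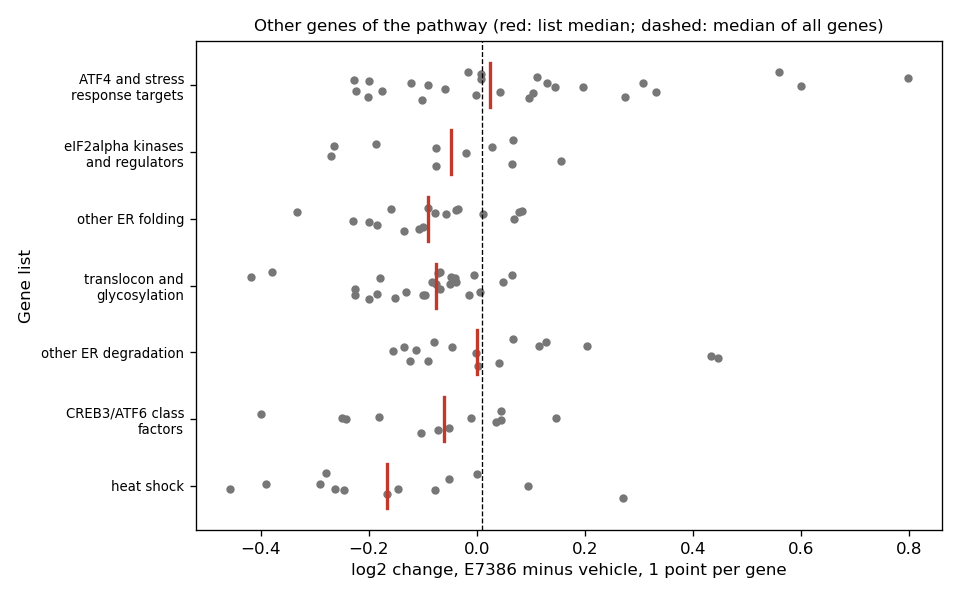
Change of each gene (log2, E7386 minus vehicle, points) in the 7 further lists, with the median of each list in red and the median of all genes tested (0.0088) as a dashed line. Translocon genes and heat shock genes lie mostly below 0, and the targets of ATF4 spread from -0.23 to 0.80.

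The elements at the start sites were set beside the changes as a description. The 9 genes with an ERSE had a median change of -0.14, with 8 of 9 lower, running from -0.58 for Pdia6 to 0.0050 for Canx. The 21 genes with a window but without an ERSE had a median of -0.062, with 12 of 21 lower, and they include both Pdia4 at -0.63 and Trib3 at 1.10. The 9 genes with an ERSE include 7 chaperone and folding genes. The 21 without one include all 6 PERK-arm genes, each with a higher mean, so role and element were not separated here. Sdf2l1 at -0.50 and Pdia4 at -0.63 have no exact ERSE in these windows.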

How the data were processed

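Total RNA of 8 samples (50 ng each) was labelled with Cy3 and hybridised to 1-colour Agilent arrays, per the labels' protocols. The authors deposited intensity values per spot from Agilent Feature Extraction (11.5.1.1 in the file headers, 11 in the submitters' processing notes). Its processed signal is background-subtracted, per the file headers. The deposited value table holds log2 values whose 8 columns share the same sorted values (median 5.31), and it served as an alternative.

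Spots marked non-uniform were set to missing, spots of a probe were averaged, and each array's 75th percentile over 55681 probes for mouse transcripts was subtracted from log2. Unversioned accessions named 27509 of 29150 RefSeq probes through RefSeq GRCm38.p6. A gene stayed in the test if 3 or more of the 4 arrays in 1 group or both had its brightest probe flagged as well above background. The test was limma (version 3.58.1, R 4.3.3; lmFit, then eBayes) with no covariates and with Benjamini-Hochberg adjustment over all genes, after a trial on simulated data.

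The members, the role groups and the further lists were chosen with earlier results of these data known. Genes given in every sample are those past the threshold, the 4 with the smallest p of each role and Hspa5, Xbp1, Atf4 and Ddit3. Of each further list the 3 with the smallest p are given. Dnajb9, single arrays of Pdia4 and Calr, the keratin-associated proteins, Dgat2l6 and the elements at start sites were added after their values were seen.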

Additional observations from a re-analysis of the deposited data

Results flagged for a closer look

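1 signal stood apart from the other arrays of its group, its gap to the nearest of them being 0.836 of the range of the 4 arrays, past Dixon's critical value. Ubxn4 had -3.48 on vehicle replicate 1, where the other 3 vehicle arrays lay between -3.88 and -3.82. Among the 112 groups of 4 arrays examined (56 genes in 2 groups), this was the 1 that passed, where chance flags about 5% of groups.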

How the results depend on the processing

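The direction of 31 of the 35 genes was the same in all 20 other settings that gave a value, and Canx, Atf4, Derl1 and Derl3 changed sign in at least 1. Settings that alter only the detection filter, the eBayes options or the replicate block leave the change of a gene as it was. Direction could not differ there, so those settings are no test of it. Keeping the non-uniform spots also gave the same changes for these genes. The number of genes past the threshold was 1 of 35 in the report. It was 0 with quantile normalisation, the deposited value table, no detection filter and the replicate block, 2 with normexp, 4 with the muscle signal as a covariate and 0 to 1 when 1 array was left out, while the count over all genes was 284 and ran from 88 to 240 when 1 array was left out. The 4 genes with the covariate are Pdia6, Sdf2l1, Manf and Trib3, and the 2 with normexp are Pdia6 and Sdf2l1. At the settings with 0 genes past the limma threshold, 12 to 16 of the 35 had an unadjusted p under 0.05. Over all genes, 2825 to 4261 of 25353 did so at these settings, and 6960 of 37018 with no detection filter. Without the 3 arrays of low muscle signal, Trib3 in place of Pdia6 passed (48 genes called in all). The median of the chaperone and folding genes was -0.19, -0.27 with array medians as the scale, -0.28 without the 3 arrays of low muscle signal and -0.21 to -0.17 when 1 array was left out. The medians of the degradation genes (-0.094 to -0.040) and of the PERK arm (0.23 to 0.44) kept their sign when 1 array was left out. Relative to the median of all genes, which ran from -0.068 to 0.052 over the settings, the chaperone median stayed between -0.31 and -0.16.

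Sign changes of Canx were -0.072 (array medians), -0.0066 (quantile), -0.0063 (deposited value table) and -0.00052 (muscle covariate), with -0.041 to 0.048 when 1 array was left out. Those of Atf4 were -0.065 (array medians), -0.031 (quantile), -0.030 (deposited value table), -0.052 (normexp), -0.00036 (mean of detected probes) and -0.00041 (muscle covariate), with -0.080 to 0.099 when 1 array was left out. Derl1 was at 0.0043 with the mean of detected probes and at -0.21 to 0.023 when 1 array was left out. Derl3 was at 0.0011 with the muscle covariate and at -0.23 to 0.22 when 1 array was left out. The cause of these changes was not tested. Same-numbered arrays correlated in their deviations at 0.49, -0.17, 0.29 and 0.18 for replicates 1 to 4, and only replicate 1 correlated best with its own number. Since 1 pair lay below 0, pairing was not taken as shown and the samples were treated as sharing only a number. With the replicate block 59 genes were called over all genes and Pdia6 did not pass (limma adjusted p = 0.111). Normexp on mean signals was not run, since median signals were used for it, and this setting and the one without the 3 arrays of low muscle signal were chosen after seeing the data.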
